A study of Mus musculus with 8 samples.

Results

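The genes described here are those of the cytosolic ribosome, taken as the rows whose symbol starts with Rpl or Rps followed by a digit, without symbols that contain -ps. This rule uses names and no measured value, and it found 92 of the 32285 genes. Of these 92 members, 43 encode canonical proteins of the large subunit and 30 encode canonical proteins of the small subunit. A further 8 are paralogues of such proteins. The remaining 11 encode no ribosomal protein and share only the start of the name, namely 10 genes of the ribosomal protein S6 kinase group and Rps19bp1. The rule left out 5 pseudogene rows, and it also misses 7 genes that belong to the ribosome under other names, among them Rplp0, Rplp1, Rplp2, Rpsa, Fau and Rack1.

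A ribosome joins a small subunit, which reads the messenger RNA, and a large subunit, which forms the peptide bonds. Each subunit is a core of ribosomal RNA with a single copy of most of its proteins, so the cell needs these proteins in nearly equal numbers. Many of their messenger RNAs begin with a run of pyrimidines, the 5′ terminal oligopyrimidine tract, through which their translation responds to nutrient signalling, and growing progenitor cells carry large amounts of them.

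The cells came from kidneys of male mouse embryos that were labelled E17.5, while the methods of the study give a stage 1 day later. The kidneys of 2 Trim28delta/delta and 2 Trim28f/f embryos were dissociated in the cold and sequenced as a single pool, in which each mouse carried its own multiplexing tag. In Trim28delta/delta kidneys the floxed Trim28tm1.1Ipc allele is recombined by the transgene Tg(Six2-EGFP/cre)1Amc/J, whose Six2 promoter is active in nephron progenitors, so that these cells and the epithelia that descend from them carry the deletion, and the stroma, ureteric bud, vessels and blood cells do not. The list of tags calls mice 1 and 2 ko and mice 3 and 4 wt, and these names are used below. The study lists Trim28f/f and Six2-cre animals as separate groups, so the presence of the transgene and the deletion cannot be told apart between these embryos. With 2 mice of each genotype in 1 pool a difference between genotypes and a difference between these particular mice cannot be told apart.

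Mice 1 to 4 gave 1316, 1491, 2749 and 1807 cells, with between 25761268 and 52777501 unique molecular identifiers (UMIs, which count single RNA molecules) per mouse and a median of 16386 to 17354 per cell. Cells were clustered without the ribosomal protein genes and named from marker genes, hence "NPC-like" for nephron progenitor-like clusters. The 18 classes with at least 10 cells in every mouse were compared, 4 of which stayed unnamed. The 3′ counts of Trim28 lie outside the floxed segment, so are no direct check of it. The gene stood at 26.9 and 23.2 CPM (UMIs per 1000000 of the library, with the library size scaled by TMM factors) in NPC-like cells of the ko mice and at 142 and 172 in the wt mice, a log2 change of -2.66 (SE 0.21, edgeR adjusted p = 3.9e-04). In stroma-like cells it stood at 105, 101, 87.4 and 118 CPM in mice 1 to 4, a log2 change of 0.01 (SE 0.25, edgeR adjusted p = 0.99997).

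A pyrimidine tract was looked for near the annotated start of the members, and some start regions are given first. Of the members, 71 matched the table of RefSeq promoters (GRCm38.p6), among them 54 canonical ones. The search looked for C followed by at least 7 further C or T bases, on the transcribed strand only, from 50 bases before to 50 bases after each annotated start. The tract was present for 47 of the 54 canonical members (87.0%), for 5 of 8 paralogues and for 1 of 9 members that encode no ribosomal protein, against 31.99% of 27025 genes in the table. Counted over promoters, 82.8% of 64 windows of canonical members held it, against 28.8% of all 32851 windows of this length. The following windows of 30 bases read 5′ to 3′ with the tract in capitals. They show 4 members of the group with the smallest adjusted p or discussed by the study (Rpl28, Rps26, Rpl10a, Rps7), 2 with nearly constant shares across cell types (Rps10, Rpl26), and for contrast the kinase gene Rps6kb1, whose window held no tract.
Rpl28: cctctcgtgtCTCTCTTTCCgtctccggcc
Rps26: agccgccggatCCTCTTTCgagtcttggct
Rpl10a: aagcgctctgCCTTCTTTCCggtttccgcg
Rps7: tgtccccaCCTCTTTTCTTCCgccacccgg
Rps10: cgcgcacgCCCCTTCCTTTCCagcctccgc
Rpl26: ctcccaaCCTCCTCTCCCCTTTCgctccga
Rps6kb1: cgcatgcgccggagctgaacttgaggagcc
These windows lie at chr7:4792953-4792982 (plus strand) for Rpl28, chr10:128626484-128626513 (minus) for Rps26, chr17:28328572-28328601 (plus) for Rpl10a, chr12:28635910-28635939 (minus) for Rps7, chr17:27635226-27635255 (minus) for Rps10, chr11:68901507-68901536 (plus) for Rpl26 and chr11:86544793-86544822 (minus) for Rps6kb1. The annotated start and the true first base of a transcript can differ by some bases, and in Rpl28 the tract begins 2 bases before the annotated start. In Rpl26 it begins 52 bases before it and thus reaches into the searched window from outside. The tract begins 18 bases after the annotated start in Rpl10a, 42 bases after it in Rpl10 and 42 bases before it in Rpl27. Tracts anywhere in the searched window were counted, so the counts above are not counts of tracts at the first base. Rpl10a has another annotated start, whose window at chr17:28328456-28328485 (plus) held no tract. The printed windows of canonical members all hold a tract, which was not so for every leading member. Rpl23, also among the members with the smallest adjusted p, has a window at chr11:97782425-97782454 (minus) that held no tract.

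The share of UMIs that the 92 members took differed widely between cell classes. Taken as the mean of the 4 mice, it was highest in the unnamed cluster led by Spon1, Fgf8 and Epha4, in which it ranged from 27.6% to 30.01%. NPC-like cells followed with 23.7% to 30.4%, and early proximal tubule-like cells with 26.8% to 28.03%. Mature epithelia held less, with 16.6% to 18.6% in proximal tubule-like cells, 14.8% to 18.8% in distal tubule-like cells and 14.3% to 16.6% in intercalated-like cells. Podocyte-like cells held 13.7% to 16.3%. Erythroid-like cells were at the bottom, where mouse 2 stood apart with 16.5% against 11.4%, 11.6% and 10.8% in mice 1, 3 and 4. Each class overlapped the next one in this order. The lowest mouse of the unnamed cluster, however, lay above the highest mouse of every class from the ureteric bud-like cells (24.3% to 27.1%) downward. Loop of Henle-like cells held 17.6% to 20.4%. These are descriptions of clusters made from the same cells and were not tested. The median of UMIs per cell (mean of the mice) was highest in proximal tubule-like cells (25069) and lowest in erythroid-like (9521) and podocyte-like cells (10114), the classes with the lowest member shares. The part of depth in this order was not tested. RNA free in the suspension, read from barcodes with 10 to 100 UMIs, held a member share of 23.7%, between the extremes of the classes.

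**Figure D1:**
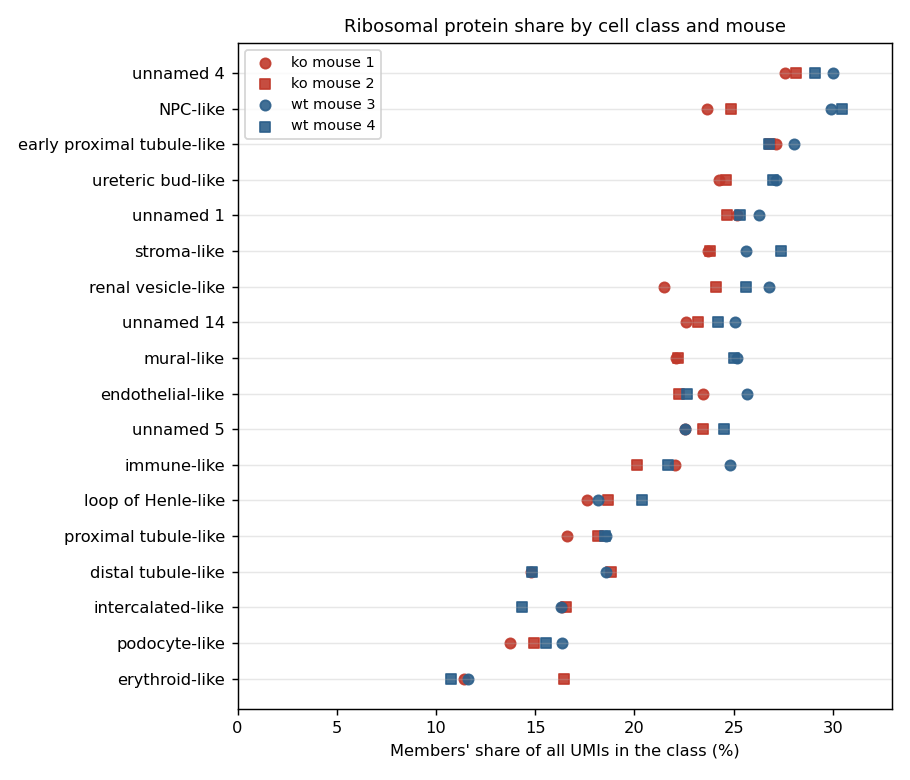
Share of all UMIs taken by the 92 members (x axis, %) in 18 cell classes (y axis, ordered by the mean of the 4 mice), with 1 point per mouse, ko in red and wt in blue. In NPC-like cells both ko mice (23.7% and 24.9%) lie left of both wt mice (29.9% and 30.4%).

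Single canonical members kept nearly fixed portions of this pool. For each of the 73 canonical members, the share of all member UMIs was averaged over mice in each class, and the highest class was divided by the lowest. This ratio ran from 1.11 to 1.97 with a median of 1.26, and it was below 1.5 for 67 members. The steadiest were Rps15 (1.11), Rps10 (1.11), Rpl29 (1.11), Rpl26 (1.12) and Rpl6 (1.12). Rps15 made up 0.969%, 1.003%, 1.05% and 1.05% of member UMIs in mice 1 to 4 in early proximal tubule-like cells, its lowest class, and 1.11%, 1.10%, 1.11% and 1.19% in the unnamed cluster led by Pdgfrb and Ebf1, its highest. The 2 classes therefore did not overlap, although they differed little.

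The 5 canonical members with the largest ratio were Rpl21, Rps19, Rpl10, Rps27 and Rps29. Rpl21, a large subunit protein, took 2.21%, 1.92%, 2.16% and 2.04% of member UMIs in podocyte-like cells of mice 1 to 4 and 1.04%, 1.06%, 1.05% and 1.0802% in proximal tubule-like cells, a ratio of 1.97. Rps19, a small subunit protein whose gene is mutated in Diamond-Blackfan anaemia, took 2.59%, 2.67%, 2.38% and 2.64% in the unnamed cluster led by Aadat and Serpina6 and 1.35%, 1.36%, 1.49% and 1.51% in podocyte-like cells. Rps29 took 3.08%, 3.21%, 3.31% and 3.04% in immune-like cells and 1.93%, 1.89%, 1.89% and 1.90% in the unnamed cluster led by Spon1. In each of these 3 genes the 4 mice of the upper class lay above the 4 mice of the lower class. Here and for Rps15 the classes were picked as highest and lowest by these same values. This separation therefore lends no support of its own. Rpl10 (ratio 1.70) was highest in podocyte-like cells, at 1.27% to 1.40%, and lowest in NPC-like cells, at 0.760% to 0.790%. Rps27 (ratio 1.67) was also highest in podocyte-like cells, at 1.33% to 1.51%, and lowest in the cluster led by Pdgfrb, at 0.818% to 0.883%. All 251 windows of 50 bases in the last 300 bases of the Rpl10 and Rps27 transcripts also occur in transcripts of other genes in the GENCODE M21 annotation, so the counts of both depend on how shared reads were treated. For Rps27 the gene with the most shared windows was its paralogue Rps27rt. At least 50% of the windows were shared for 40 of the 92 members.

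**Figure D2:**
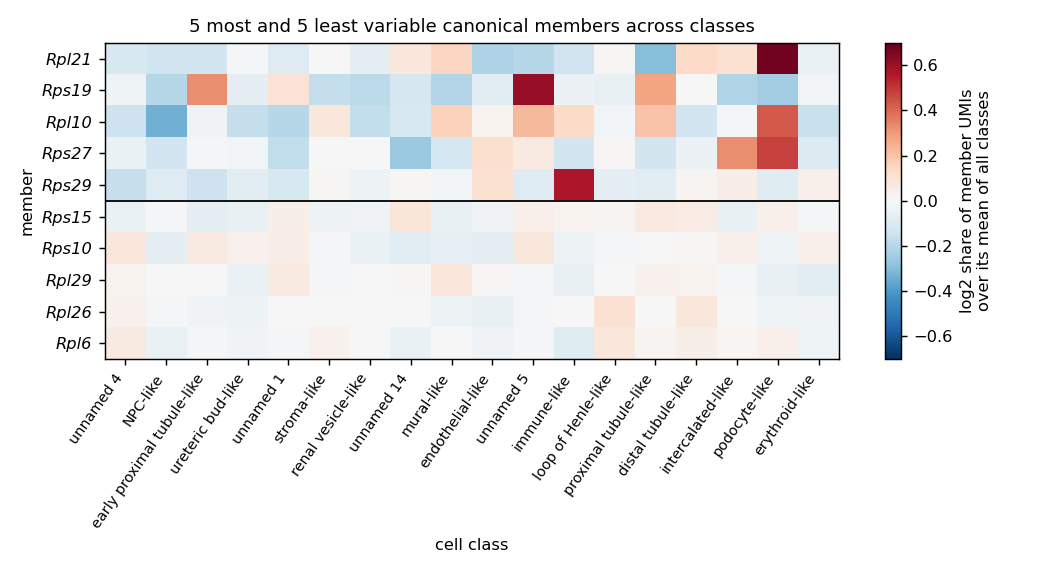
Share of the member UMIs taken by the 5 most variable (above the line) and 5 least variable canonical members in each class, as the log2 ratio to the gene's mean over classes (colour scale). Rpl21 is raised in podocyte-like cells, Rps19 in the unnamed cluster 5 and Rps29 in immune-like cells, whereas the lower 5 genes stay near 0.

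Paralogues were expressed at lower and more varied levels, given here as plain CPM without the TMM factors. Rpl22l1, the paralogue of Rpl22, was highest in early proximal tubule-like cells, where the 4 mice lay between 1756 and 1839 CPM. The next class by its mean was the unnamed cluster led by Aadat, with a mean of 1465 CPM. Rpl36al and Rps27l were highest in proximal tubule-like cells, at 863 to 1191 CPM and 547 to 633 CPM. Rpl7l1 was highest in NPC-like cells, at 97.6 to 108 CPM, with renal vesicle-like cells next to it at a mean of 104 CPM, so these 2 classes did not differ beyond their spread. Rps27rt reached 47.8 to 66.2 CPM in endothelial-like cells, its highest class. The other paralogues were almost absent from these kidneys. Rpl39l had 12 UMIs and Rpl3l, known from striated muscle, had 20 UMIs over all classes, and Rpl10l, known from the testis, had 0.

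The kinase genes had their highest levels in different classes. Rps6ka1, which encodes the kinase RSK1, stood at 87.1 to 96.5 CPM in the 4 mice in intercalated-like cells, and immune-like cells followed with a mean of 50.6 CPM. Rps6ka6 was highest in loop of Henle-like cells at 26.2 to 29.98 CPM and almost as high in the unnamed cluster of cycling cells led by Ube2c and Cenpf, at a mean of 27.5 CPM. Rps6ka3 was highest in early proximal tubule-like cells (79.7 to 133 CPM) and Rps6ka2 in endothelial-like cells (12.3 to 23.2 CPM). Rps6kb1, which encodes the S6 kinase that phosphorylates Rps6, was highest in the cycling cluster at 70.2 to 98.6 CPM, and Rps6kb2 in podocyte-like cells at 18.1 to 31.7 CPM. Rps19bp1, whose product binds Rps19, was highest in ureteric bud-like cells at 67.0 to 89.5 CPM. Rps6ka5 and Rps6kc1 did not exceed means of 11.3 and 10.8 CPM in any class. Rps6ka4 and Rps6kl1 had 48 and 16 UMIs in all. All 251 windows of Rps6ka4 and 65.3% of those of Rps6ka2 also occur in transcripts of other genes. The counts of both depend on how shared reads were treated, so the low count of Rps6ka4 need not mean low expression.

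**Figure D3:**
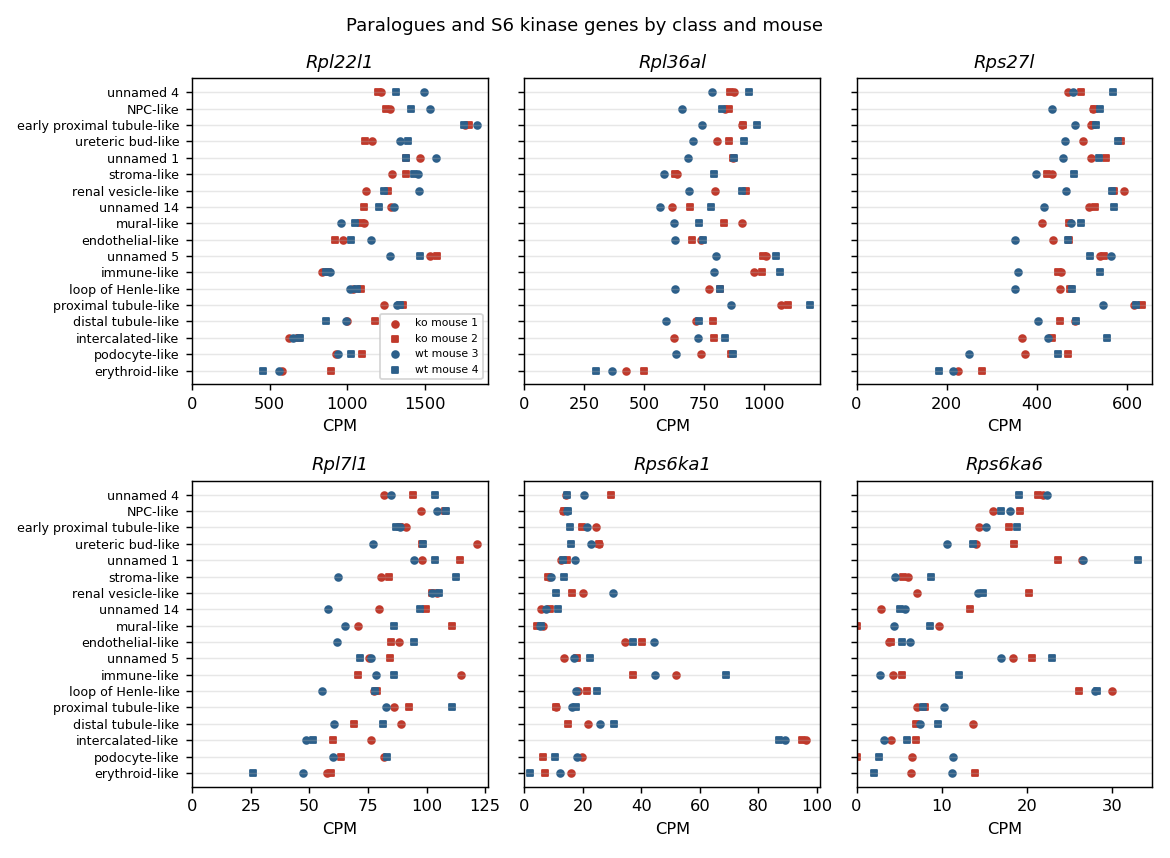
Levels of 4 paralogues and 2 kinase genes (x axis, plain CPM, each panel with its own scale from 0) in 18 classes (y axis), with 1 point per mouse, ko in red and wt in blue. Rpl22l1 peaks in early proximal tubule-like cells and Rps6ka1 in intercalated-like cells, in all 4 mice.

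The comparison of genotypes asked whether the deletion of Trim28 in nephron progenitors went with a change of ribosomal protein messages in these cells. In NPC-like cells the members took 23.7% and 24.9% of UMIs in the ko mice and 29.9% and 30.4% in the wt mice, or 24.3% ± 0.86 against 30.2% ± 0.38 (SD, n = 2 each). The groups did not overlap, and the difference of -5.90 percentage points was several times the spread within a genotype, but the exact permutation test over 2 and 2 mice (two-sided) gave p = 0.333, the smallest it can give. These values rest on 48, 73, 211 and 390 cells in mice 1 to 4. The mitochondrial share of these cells was 3.67% and 3.54% in the ko mice and 2.70% and 3.41% in the wt mice, and its part in the member share was not tested.

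Gene by gene, 87 members had enough counts to be tested in NPC-like cells, all 73 canonical ones among them. Of these 87, 46 passed an adjusted p of 0.05 in edgeR's quasi-likelihood test, all 46 lower in the ko mice and all canonical. Over all 11239 genes tested, 0.89% were lower and 0.65% higher by the same rule. The median log2 change of the members was -0.45, against -0.01 for all genes. All 73 canonical members had negative changes, from -0.61 to -0.18, and in every one both ko mice lay below both wt mice. That was so for 80 of the 87 tested members and for 21.4% of all genes. The number of calls depended on the fit. At an unadjusted p below 0.05, edgeR had 73 members lower, against 5.13% of all genes. DESeq2 called 4 members lower (0.345% of all genes), with 71 at an unadjusted p below 0.05. Leaving out cells marked by Scrublet, a doublet caller, gave 11 (0.362% of all genes), with 72 at an unadjusted p below 0.05. The median log2 change of the members was -0.45 with DESeq2 and -0.43 without these cells. For these fits and those without single mice that follow, the percentages of all genes are of adjusted calls. The share of all genes at an unadjusted p below 0.05 was not computed for them, so the unadjusted member counts stand without it. Leaving out ko mouse 1 or 2 gave 0 (0.104% and 0.201% of all genes), with 59 and 71 members at an unadjusted p below 0.05. Leaving out wt mouse 3 or 4 gave 73 and 72 (2.76% and 6.16% of all genes).

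Of the 10 members with the smallest adjusted p (ties ordered by the unadjusted p), 8 are described here, with TMM-scaled values. Of the large subunit these were Rpl28 (3276 and 3603 CPM in ko, 5147 and 5365 in wt, log2 change -0.61), Rpl10a (2388 and 2361 against 3533 and 3399, -0.55), Rpl23 (5032 and 5297 against 7071 and 7539, -0.50) and Rpl23a (2609 and 2773 against 3881 and 3959, -0.54). Of the small subunit they were Rps28 (3118 and 3440 against 4877 and 5025, -0.59), Rps26 (3750 and 4102 against 5745 and 5895, -0.57), Rps4x (3582 and 3765 against 5243 and 5538, -0.55) and Rps16 (3497 and 3760 against 5156 and 5257, -0.52). In all 8 the ko and wt mice were separated by more than the distance between mice of one genotype, and their adjusted p (edgeR) ran from 0.012 to 0.021. Rps7, a small subunit protein whose gene the study discusses, stood at 3537 and 3903 CPM in the ko mice and 4920 and 5303 CPM in the wt mice (TMM-scaled), a log2 change of -0.46 (SE 0.09, edgeR adjusted p = 0.040). The call of Rps7 was lost in DESeq2 (log2 change -0.46, DESeq2 adjusted p = 0.33) and without Scrublet-marked cells (-0.43, edgeR adjusted p = 0.093), as it was without either ko mouse and with tag counts centred over cells. Its log2 change lay between -0.54 and -0.26 in all settings. Rpl28, Rps26, Rpl10a and Rps7 are those whose start sequences are printed above. The canonical members with the smallest changes were Rpl41 (log2 change -0.18, edgeR adjusted p = 0.57) and Rpl27 (-0.23, edgeR adjusted p = 0.52), 2 genes named after their values were seen. Rpl41 and Rpl27 share 62.9% and 83.3% of their windows of 50 bases with other annotated transcripts, and of the 8 leading members described Rpl10a, Rpl23a, Rps26 and Rps4x share 50% or more.

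**Figure D4:**
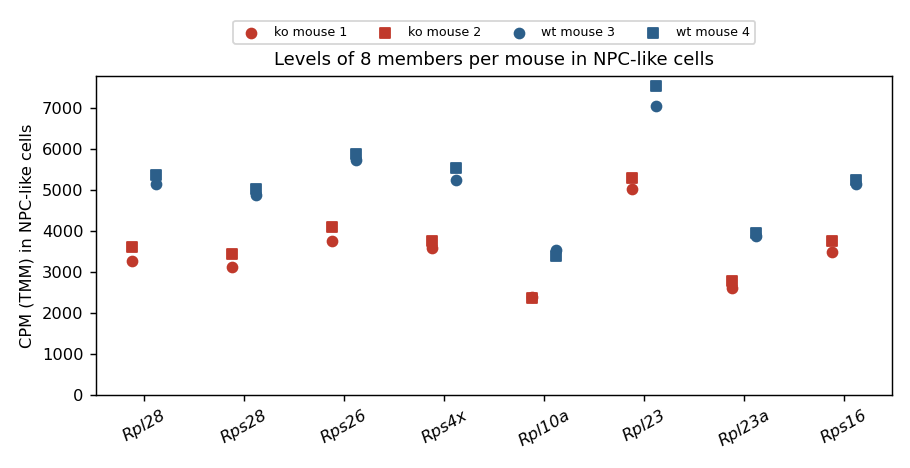
Levels (y axis, TMM-scaled CPM from 0) of 8 members among the 10 with the smallest adjusted p in NPC-like cells, with 1 point per mouse, ko in red and wt in blue. For each gene both ko mice lie below both wt mice, as for Rpl28 with 3276 and 3603 against 5147 and 5365 CPM.

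By subunit, 24 of 30 small subunit members and 22 of 43 large subunit members were called lower in NPC-like cells, with medians of -0.48 and -0.45. The ratio of large to small subunit UMIs was 1.179 and 1.167 in the ko mice and 1.157 and 1.146 in the wt mice, which did not overlap (exact permutation test, two-sided, p = 0.333, the smallest possible). The difference of 0.0215 makes the ko ratio 1.02 times the wt ratio. Members outside the canonical set behaved less evenly. Of 5 tested paralogues 0 were called (edgeR), with 2 at an unadjusted p below 0.05, namely Rpl22l1 (1220 and 1205 CPM in ko, 1597 and 1518 in wt, log2 change -0.36, edgeR adjusted p = 0.17) and Rps27rt (log2 change -0.51, edgeR adjusted p = 0.42). Rpl36al (0.05), Rps27l (-0.03) and Rpl7l1 (-0.19) had smaller log2 changes. Of the 9 tested members that encode no ribosomal protein, 0 were called and 0 had an unadjusted p below 0.05 (edgeR), with log2 changes from -0.50 for Rps6ka2 to 0.10 for Rps6kb1.

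Genes that work with these members were read from lists beside them. Over all genes tested in NPC-like cells, edgeR called 0.89% lower and 0.65% higher, and 5.13% were lower at an unadjusted p below 0.05. Of the 7 ribosomal proteins that the rule misses, 3 were lower in NPC-like cells by edgeR's test and all 7 had negative changes (median log2 change -0.43). Rplp0 and Rplp2, which form the stalk of the large subunit, changed by -0.52 and -0.47 (edgeR adjusted p = 0.036 and 0.039), and Fau, the small subunit protein made with a ubiquitin-like part, by -0.53 (edgeR adjusted p = 0.021). Of 7 elongation genes 1 was called, Eef1a1, which brings transfer RNA to the ribosome and whose message also begins with a pyrimidine tract (4778 and 5113 CPM in ko, 6455 and 7034 in wt, log2 change -0.45, edgeR adjusted p = 0.036). Of 8 regulators 1 was called, the transcription factor Myc, which drives ribosome production (15.4 and 14.4 CPM in ko, 45.9 and 39.6 in wt, log2 change -1.52, SE 0.27, edgeR adjusted p = 0.023). Of 30 ribosome biogenesis genes 0 were called in either direction (2 lower and 1 higher at an unadjusted p below 0.05, median -0.21), and of 27 initiation genes 0 (5 lower and 1 higher, median -0.06). For the biogenesis genes, 2 lower of 30 lies near the share of all genes. In the other 17 classes 1 gene of these lists was called, Npm1, a nucleolar protein of ribosome assembly, in the cluster led by Spon1 (1880 and 1960 CPM in ko, 2919 and 2526 in wt, log2 change -0.50, SE 0.08, edgeR adjusted p = 0.0097). In that cluster 0.255% of all genes were called lower. DESeq2 calls were not counted for these lists.

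NPC-like cells were made of 2 clusters. Cluster 10, led by Cited1, Cped1, Spock2 and Eya1, held 15, 34, 84 and 212 cells of mice 1 to 4, and cluster 7, led by Tmem100, Pcp4, Six2 and Wnt4, held 33, 39, 127 and 178. The 10 leading genes of cluster 7 held 3 NPC markers (Six2, Eya1 and Uncx) and as many renal vesicle markers (Tmem100, Pcp4 and Wnt4), so its name rests on a tie there, and at resolution 0.4 the matching cluster stayed unnamed. Those of cluster 10 held 5 NPC markers and 0 renal vesicle markers. The member share was 30.6%, 30.8%, 35.9% and 34.9% in mice 1 to 4 in cluster 10 and 21.8%, 21.7%, 27.2% and 26.8% in cluster 7, so the ko mice lay below the wt mice in both, and the share was higher in cluster 10 in each mouse. Fitted alone, 37 of 84 tested members were lower in cluster 10 (0.726% of all genes) and 65 of 86 in cluster 7 (1.10% of all genes), with medians of -0.33 and -0.43. Marker sums also differed between the genotypes. The 7 NPC markers, of which 0 were at 0, summed to 490 and 575 CPM in ko and 1035 and 1241 in wt NPC-like cells. The 7 renal vesicle markers summed to 1789 and 1627 against 1105 and 1001, and the 6 early proximal tubule markers to 326 and 277 against 183 and 113. In all, 6 of 17 marker lists were higher in both ko mice and 1, the NPC list, was lower. For comparison, both ko mice lay below both wt mice for 21.4% of all genes in NPC-like cells. The share higher in both was not computed, and for clusters 10 and 7 alone neither share was. The S-shaped body sum was 81.5 and 133 against 65.4 and 55.6, the podocyte sum 188 and 244 against 176 and 88.2, the collecting duct sum 107 and 108 against 77.3 and 93.2, and the intercalated sum 44.3 and 29.8 against 29.5 and 26.05. Within cluster 10 the renal vesicle sum was 387 and 328 CPM in ko against 453 and 438 in wt, while the NPC sum was 908 and 1108 against 1725 and 1582. These 2 of 17 marker lists were lower in both ko mice in cluster 10, and 6 were higher. Among the 6, the early proximal tubule sum was 153 and 131 CPM in ko against 79.4 and 64.7 in wt, the S-shaped body sum 110 and 139 against 62.8 and 44.8, the collecting duct sum 196 and 159 against 78.6 and 110, and the distal tubule sum 71.7 and 93.8 against 64.3 and 49.4. In cluster 7, 4 of 17 lists were higher in both ko mice and 1, the NPC list, was lower, at 378 and 291 CPM against 723 and 965. The 4 were the renal vesicle list (2162 and 2320 against 1400 and 1455) and the early proximal tubule, S-shaped body and collecting duct lists. The part of these differences in the member values was not tested.

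Lower member shares in the ko mice were not limited to NPC-like cells. In 10 of the 18 classes both ko mice lay below both wt mice, and in 1, the intercalated-like cells, above. Among the 10 were classes that Six2-cre does not target, in which the log2 changes of Trim28 were -0.01 (ureteric bud-like), 0.01 (stroma-like) and -0.11 (mural-like), with edgeR adjusted p near 1. The share was 24.3% and 24.6% in ko and 27.1% and 27.0% in wt ureteric bud-like cells, 23.7% and 23.8% against 25.6% and 27.4% in stroma-like cells, and 22.1% and 22.2% against 25.2% and 25.01% in mural-like cells. Some marker sums also separated the genotypes. In stroma-like cells 3 of the 17 lists were higher and 2 lower in both ko mice, with a stroma sum of 7436 and 6644 CPM in ko against 5492 and 3732 in wt and a renal vesicle sum of 264 and 296 against 231 and 108. In ureteric bud-like cells 3 lists were higher and 3 lower, with a distal tubule sum of 2628 and 2033 against 955 and 1522. For comparison, both ko mice lay below both wt mice for 17.4% of all genes in stroma-like and 15.9% in ureteric bud-like cells. The counts of lower lists are close to these shares. The share of all genes higher in both ko mice was not computed for any class, so the counts of higher lists stand without it. Whether markers shifted was not tested. The part of the marker sums in the member shares was not tested. In renal vesicle-like cells the member share was 21.5% and 24.1% against 26.8% and 25.6%, and in proximal tubule-like cells 16.6% and 18.1% against 18.6% and 18.5%. In proximal tubule-like cells 1 of the 17 lists was higher and 3 were lower in both ko mice, beside 20.1% of all genes lower. The NPC sum was 30.8 and 29.6 CPM in ko against 57.2 and 76.8 in wt, while the proximal tubule sum overlapped. Early proximal tubule-like cells overlapped, with 27.1% and 26.8% against 28.03% and 26.8%. None of these exact tests can go below p = 0.333. Over all cells of a mouse the share was 21.2%, 22.4%, 24.7% and 24.9% in mice 1 to 4, beside mitochondrial shares of 4.72%, 4.39%, 3.46% and 4.04%. The mix of classes differed between mice, with 48, 73, 211 and 390 NPC-like cells in mice 1 to 4. Proximal tubule-like cells, with a lower member share, numbered 183, 172, 132 and 108. The part of this mix in the share over all cells was not tested. The mitochondrial share was also higher on average in the ko mice in 15 of the 18 classes.

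Set against the stroma of the same mouse, the member share of NPC-like cells was 0.999 and 1.05 times as high in the ko mice and 1.17 and 1.11 times in the wt mice. NPC-like cells were the 1 class of 17 in which both ko mice lay below both wt mice on this scale. In 5 classes both ko mice lay above both wt mice. These were early proximal tubule-like cells (1.15 and 1.13 against 1.09 and 0.979), erythroid-like cells (0.481 and 0.691 against 0.454 and 0.394), intercalated-like cells (0.69 and 0.696 against 0.635 and 0.523), the cluster led by Ube2c (1.06 and 1.04 against 1.03 and 0.925) and the cluster led by Aadat (0.951 and 0.984 against 0.879 and 0.895). The genotypes overlapped in the other 11 classes, as in ureteric bud-like cells with 1.02 and 1.03 against 1.06 and 0.986. The stroma of mouse 4 had the highest share of the 4 mice (27.4%), which lowers every ratio of that mouse.

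Outside NPC-like cells, edgeR's test and DESeq2 called 0 members in either direction in each of the other 17 classes, and few genes of any kind were called there by edgeR. In stroma-like, ureteric bud-like, endothelial-like, mural-like and erythroid-like cells 0% of all genes were called in either direction. The share of all genes called lower was 0.336% in distal tubule-like, 0.0871% in proximal tubule-like, 0.0589% in renal vesicle-like, 0.0443% in early proximal tubule-like, 0.0316% in intercalated-like, 0.0288% in immune-like, 0.0189% in podocyte-like and 0.00933% in loop of Henle-like cells. The share called higher was 0.412%, 0.375%, 0.246%, 0.381%, 0%, 0%, 0.17% and 0.0653% in the same order. In the unnamed clusters led by Spon1, Aadat, Ube2c and Pdgfrb, 0.255%, 0.0739%, 0.017% and 0.0138% of all genes were lower and 0.577%, 0.259%, 0.187% and 0.0138% higher. The unadjusted p was below 0.05, always lower in ko, for 59 of 84 tested members in ureteric bud-like cells (2.69% of all genes), 45 of 82 in stroma-like cells (3.26%), 31 of 87 in the cluster led by Spon1 (4.76%), 23 of 80 in mural-like cells (2.09%), 20 of 82 in the cluster led by Pdgfrb (3.44%) and 18 of 87 in renal vesicle-like cells (2.63%). Median log2 changes there were -0.21, -0.22, -0.12, -0.20, -0.16 and -0.27. Both ko mice lay below both wt mice for 74 members in stroma-like cells (17.4% of all genes), for 73 in ureteric bud-like cells (15.9% of all genes) for 77 in renal vesicle-like cells (17.9% of all genes) and for 70 in the cluster led by Spon1 (19.9% of all genes). In early proximal tubule-like cells this held for 6 of 87 members (18.5% of all genes) and in proximal tubule-like cells for 37 of 87 (20.1% of all genes). The stromal result depended on the wt mice, since leaving out mouse 3 gave 60 members lower (1.57% of all genes) and leaving out mouse 4 gave 28 (3.71% of all genes). Rps7 had log2 changes of -0.22 in stroma-like, -0.21 in ureteric bud-like, -0.25 in renal vesicle-like and -0.01 in early proximal tubule-like cells, with 0 of the 4 called by edgeR's test.

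**Figure D5:**
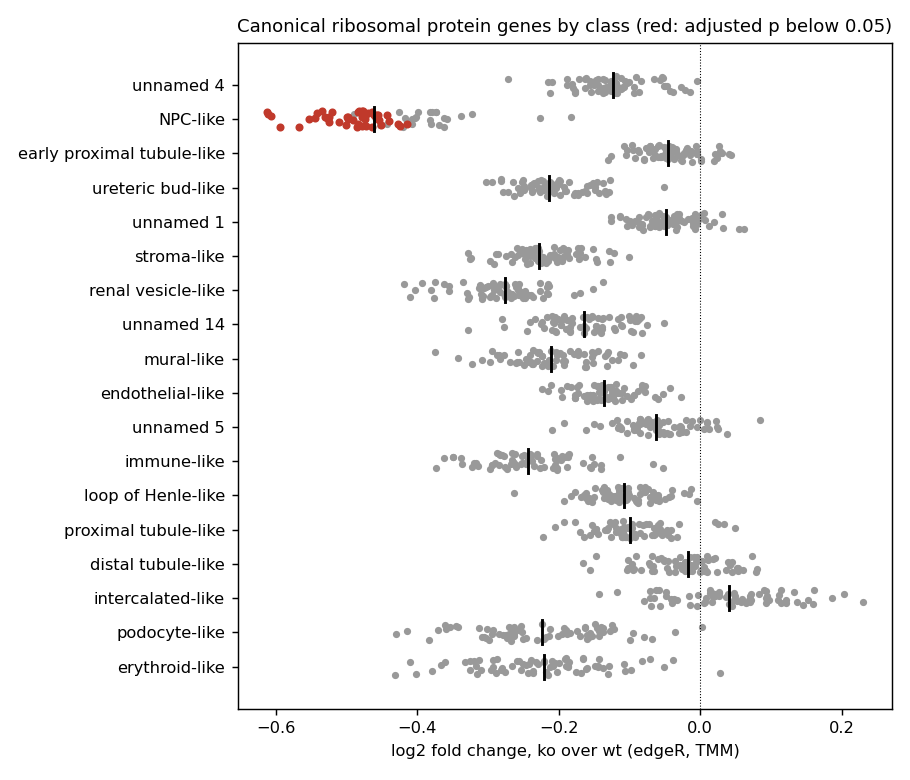
Log2 fold change of ko over wt (x axis) for the 73 canonical members in 18 classes (y axis), each point a gene, red where edgeR's adjusted p was below 0.05, with a black bar at the median. Red points occur in NPC-like cells, where the median is -0.46. The gene values of the intercalated-like cells centre slightly above 0.

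The difference between classes was itself tested, through an interaction of class and genotype in a fit that also held each mouse. Against stroma-like cells, 79 of 86 members had a more negative change in NPC-like cells, with a median difference of -0.24 (all genes -0.01) and 61 members at an unadjusted p below 0.05. After adjustment over all genes, 1 member passed, against 0.17% of all genes. This was Rps12, named after its value was seen, whose log2 change was -0.48 in NPC-like and -0.10 in stroma-like cells (difference -0.39, SE 0.08, edgeR adjusted p = 0.043). Leaving out single mice gave between 0 and 11 members, against 0.237% to 0.882% of all genes. Against proximal tubule-like cells, 82 of 87 members had a more negative change in NPC-like cells, with a median difference of -0.36 (all genes -0.01) and 75 members at an unadjusted p below 0.05. In both comparisons the share of all genes with a negative difference, or with an unadjusted p below 0.05, was not computed. These counts of members therefore stand beside the medians of all genes only. After adjustment over all genes, 17 members passed, against 0.375% of all genes. They included Rps28 (difference -0.46, edgeR adjusted p = 0.039), Rpl10a (-0.47, 0.046) and Rpl28 (-0.43, 0.048). Without ko mouse 1 or 2, 0 members passed (0% and 0.00756% of all genes), and without wt mouse 3 or 4, 73 and 69 did (1.87% and 1.61% of all genes).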

How the data were processed

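The authors ran Cell Ranger (the submitters' processing notes name version 6.0.0, the matrix header 4). They deposited UMI counts for 32285 genes and 12 tags in 3921239 barcodes, without normalization. The submitters' notes name GRCm38 and mm10, without saying which applies to these counts. Barcodes with at least 6891 UMIs (order-of-magnitude rule, 24000 expected cells), 200 detected genes and no more than 10% mitochondrial UMIs stayed in (19272). Cells were assigned to mice with HTODemux (quantile 0.99, Seurat 5.3.0, R 4.3.3), which left 7363. Cells with several tags (4721) were taken as doublets and left out, as were 2680 without a tag and 4508 with tags that are not named. Scrublet (scanpy 1.11.5) was an alternative and marked 7.65% of the assigned cells.

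Cells were normalized with SCTransform (sctransform 0.4.2) and grouped into Louvain clusters (resolution 0.8, first 30 components) from 2986 variable genes, after 14 ribosomal protein genes among 3000 were removed. A cluster took a cell type's name from listed markers, if the mean log2 ratio was at least 0.5, at least 3 markers were 1.5-fold higher in at least 10% of cells, 1 or more stood among its 10 leading genes and no other type had more there. Rebuilt names may differ from those of the study. Collecting duct-like cells were not compared, since mouse 3 had fewer than 10.

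UMIs were summed per mouse and class, filtered with filterByExpr, scaled by TMM and tested with edgeR 4.0.16 (quasi-likelihood test, 2 sums against 2, no covariates, Benjamini-Hochberg adjustment over all genes of the class, threshold 0.05). SEs were derived from the fold change and the F statistic. Shares and ratios were compared by exact permutation tests over mice (scipy 1.17.1). DESeq2 1.42.0, other scaling, filters, assignments and clusterings, and fits without single mice served as alternatives. A mouse left alone in its genotype is assumed to vary like the other pair. Transcripts compared for shared windows are from GENCODE M21 (GRCm38), and promoter sequences with their positions from RefSeq (GRCm38.p6). The named members are those called in a class (the 10 with the smallest adjusted p where there were more), the 5 most and 5 least variable canonical members across classes, all paralogues and non-ribosomal members, Rps7, and called genes of the comparison lists. A few genes that meet this rule or belong to these lists are not reported here. The members and lists were chosen with earlier results of these data known. The tests were tested on simulated data with known changes. These changes were larger than those of the canonical members in NPC-like cells, and genes were drawn independently of each other. How well changes of the members' size are found was therefore not tested.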

Additional observations from a re-analysis of the deposited data

Results flagged for a closer look

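The change of 17 members was more negative in NPC-like than in proximal tubule-like cells by edgeR's interaction test, and the change of 1 member, Rps12, was more negative in NPC-like than in stroma-like cells. The member share of intercalated-like cells was higher in both ko than in both wt mice, by 1.16 percentage points, whereas 10 other classes moved the opposite way, and this difference was not tested. The share was 16.36% and 16.56% in the ko mice and 16.28% and 14.32% in the wt mice, from 10, 20, 32 and 25 cells in mice 1 to 4. As a mean of per-cell values the mice overlapped, with 15.08% and 15.69% against 15.66% and 13.82%. The difference ran from 0.179 to 2.14 without single mice and turned to -1.48 at resolution 0.4. The ratio of large to small subunit UMIs was lower in both ko mice in endothelial-like cells (difference -0.0116), in intercalated-like cells (-0.0128, but 0.00793 at resolution 0.4) and in the unnamed cluster led by Pdgfrb and Ebf1 (-0.0334), whereas in 8 classes it was higher in both, and these differences were not tested either. No group held the 4 mice that a search for outliers needs.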

How the results depend on the processing

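Only 2 mice stand behind each genotype, so no exact test over mice can pass 0.05, and NPC-like cells of ko mouse 1 numbered 48. No paired analysis was possible because mice 1 to 4 share no number between genotypes. The member share in NPC-like cells stayed lower in ko in all settings, with differences from -6.51 to -4.33 percentage points, and the ratio of subunits stayed higher. The log2 changes of the 10 leading members and Rps7 stayed negative throughout, although 37 of their 165 alternative fits were past the threshold no more. The count of 46 members lower in NPC-like cells became 4 with DESeq2, 72 without the filter, 11 without Scrublet-marked cells, and 6 with tag counts centred over cells, an alternative chosen after seeing the data, as were the fits of clusters 7 and 10 alone. It ranged from 0 to 73 without single mice. Without single mice, stroma-like cells gave 0 to 60 members lower, early proximal tubule-like cells 0 to 29 lower and 0 to 2 higher, immune-like cells 0 to 31 lower, loop of Henle-like cells 0 to 1 higher, unnamed cluster 1 0 to 1 lower and 0 to 1 higher, clusters 14 and 5 0 to 1 lower, and cluster 4 0 to 3 lower, or 7 lower without the filter. Members more negative in NPC-like than in stroma-like cells numbered 37 without the filter and 0 to 11 without single mice, and those against proximal tubule-like cells 57 and 0 to 73. The share of all genes called was not computed for fits without the filter or with tag counts centred over cells. For fits without single mice, it was computed in NPC-like and stroma-like cells but in no other single class. Whether the member counts of the fits that lack this share exceed a general rise in calls was therefore not tested. The difference in member share changed sign in classes whose mice overlapped. In distal tubule-like cells (0.107) it was -0.402 with k-means, -1.27 by the share of the highest tag, -1.68 at resolution 0.4, -0.0860 without Scrublet-marked cells, -0.801 with tags centred over cells, -0.395 as a mean of cells, and -1.92 to 2.14 without single mice. In erythroid-like cells it was -0.0720 with k-means. Intercalated-like cells, whose mice did not overlap by summed UMIs, turned to -1.48 at resolution 0.4. Without single mice it ran in early proximal tubule-like cells from -1.04 to 0.193, in endothelial-like cells from -2.79 to 0.22 and in cluster 5 from -1.51 to 0.456. The difference in the ratio turned to -1.33e-04 in distal tubule-like cells with ribosomal protein genes in the clustering, to -0.00239 and -0.00354 in early proximal tubule-like and renal vesicle-like cells at resolution 1.2, to 0.00793 and -0.0163 in intercalated-like and mural-like cells at resolution 0.4, to 5.34e-04 in stroma-like cells with tags centred over cells, and to 6.74e-04 in cluster 4 as a mean of cells. Without single mice it ran in distal tubule-like cells from -0.0127 to 0.0179, in erythroid-like cells from -0.00865 to 0.0395 and in stroma-like cells from -0.0122 to 0.0025. Causes of these changes were not tested. Settings in which a class was not formed gave no value for it.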

Other observations

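Some members had their lowest or highest level in the same mouse in most classes. Rps19bp1 was lowest in mouse 3 in 17 of 18 classes, Rpl36al in 16 and Rps27l in 13, while Rps14, Rps28, Rpl17 and Rpl30 were each highest in mouse 3 in 14 classes. The share of all members was itself highest in mouse 3 in many classes, as in endothelial-like (25.7%), immune-like (24.8%) and renal vesicle-like cells (26.8%). A high level in mouse 3 is thus not particular to Rps14, Rps28, Rpl17 and Rpl30. How often such patterns occur over all genes was not counted. These genes were chosen after their values were seen, from members with at least 1000 UMIs, and nothing was tested.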
